A study of Mus musculus with 12 samples.

Results

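The genes described here are 10 members of the Notch pathway: the receptors Notch1, Notch2 and Notch3, the ligands Dll1, Dll3 and Jag1, and the genes Hes1, Hes5, Hes6 and Hey1. They were chosen by name, as every array probe whose gene name, older alias or accession is that of a member, which gave 15 of 41174 probes and 10 of 27666 genes. All 10 were measured in neural progenitor cells, the dividing precursors of neurons and glia, after overexpression of 1 of 10 transcription factors, with 1 array for each.

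In Notch signalling a ligand on one cell binds a receptor on its neighbour. The receptor is then cleaved, and its released inner part enters the nucleus and joins the DNA-binding protein RBPJ and Mastermind coactivators to switch on target genes. In neural progenitors the best known targets are Hes and Hey genes, which encode basic helix-loop-helix repressors that hold back proneural genes and with them neuronal differentiation.

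Mouse cells of strain 129/Ola were given, per the labels, a retroviral open reading frame (in the vector pMXs-IRESNeo) for Crebzf, Esx1, Etv6, Gatad2b, Hmga2, Nfxl1, Pax6, Pdx1, Sox11 or Zfp451, or for EGFP, a fluorescent protein used as a control, and a further culture was labelled mock. About 95% of infected cells expressed the insert, the antibiotic G418 was added at 24 h and cells were harvested at 72 h. The sources used here do not say whether the mock culture was given an empty virus or G418. Each of the 12 groups was 1 culture on 1 array, so no value carries a replicate error and no p-value was computed, and the same EGFP and mock arrays served all 10 comparisons. The question put to each factor array was which members differed from both controls.

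A level is the log2 signal of a probe relative to the 75th percentile of its array, so 0 is that percentile, and levels of different probes are not compared. A call on a factor array means a level 2-fold or more above both EGFP and mock, or 2-fold or more below both, with the brighter side well above background. Between EGFP and mock, 16079 genes well above background on all 12 arrays differed by a median of 0.07 log2, and 42 of them by 2-fold or more. The 95th percentile of that difference was 0.19 for genes at a level of -2 or more, 0.48 from -5 to -2 and 0.67 under -5, and these percentiles serve below as the only measure of spread. Both controls stood on 1 slide with Pax6 and Hmga2, so this spread holds no difference between slides. A gap given below between arrays of different slides can include such a difference, even where it exceeds the spread. Gatad2b, Etv6, Esx1 and Nfxl1 shared a second slide, and Crebzf, Pdx1, Sox11 and Zfp451 the third, where slide and factor cannot be told apart.

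Whole arrays differed widely in their number of calls. Of 20912 genes tested, 10.7% were called higher on the Pax6 array, 10.3% on Esx1, 9.83% on Crebzf, 9.86% on Pdx1, 9.75% on Sox11 and 9.6% on Zfp451. On the other factor arrays the share was 0.43% for Hmga2, 0.631% for Gatad2b, 1.05% for Etv6 and 0.296% for Nfxl1. Called lower were 6.4% on Pax6, 7.43% on Esx1, 6.28% on Crebzf, 6.63% on Pdx1, 6.91% on Sox11 and 6.31% on Zfp451, against 0.569% on Hmga2, 1.0% on Gatad2b, 0.837% on Etv6 and 1.22% on Nfxl1. The member results below follow this division of the arrays, so each member's calls are to be read against these shares.

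Promoter sequence is shown for members that bear on the contrast between receptor, ligand and target genes: Notch3 and Jag1, which were called on the same arrays, and Hes5, a classical target that was not. Windows of 250 bases before the gene start came from RefSeq (build GRCm38.p6), which matched 8 of the 10 members, Hes1 and Hey1 not among them. The letters TGGGAA, the core of the RBPJ binding sequence, and CACGCG, the class C sequence bound by Hes and Hey repressors, were searched on both strands, and in the windows shown no match of one overlaps a match of the other. Capitals mark the matches, and each sequence is written 5′ to 3′ on the gene's strand.
Notch3 (chr17:32166891-32167140, minus strand), with neither motif.
Notch3: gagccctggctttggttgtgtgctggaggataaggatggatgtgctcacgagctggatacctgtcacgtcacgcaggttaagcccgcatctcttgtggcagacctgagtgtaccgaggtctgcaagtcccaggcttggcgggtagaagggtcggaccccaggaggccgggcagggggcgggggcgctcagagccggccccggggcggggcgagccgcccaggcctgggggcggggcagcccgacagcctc
Jag1 (chr2:137116521-137116770, minus strand), with CACGCG on the reverse strand at 249 to 244 and on the forward strand at 171 to 166 bases before the start.
Jag1: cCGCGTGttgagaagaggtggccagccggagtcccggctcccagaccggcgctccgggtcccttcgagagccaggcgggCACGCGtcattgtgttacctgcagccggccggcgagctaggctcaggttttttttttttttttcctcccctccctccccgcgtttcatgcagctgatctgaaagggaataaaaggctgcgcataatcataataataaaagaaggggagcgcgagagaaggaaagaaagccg
Hes5 (chr4:154960673-154960922, plus strand), with TGGGAA on the reverse strand at 226 to 221 and on the forward strand at 82 to 77 bases before the start.
Hes5: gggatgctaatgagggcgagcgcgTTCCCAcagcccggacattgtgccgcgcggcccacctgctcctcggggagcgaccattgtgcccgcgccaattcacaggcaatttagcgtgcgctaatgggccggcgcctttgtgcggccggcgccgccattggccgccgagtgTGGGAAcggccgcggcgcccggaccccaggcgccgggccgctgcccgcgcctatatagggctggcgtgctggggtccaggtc
TGGGAA occurred in 21.6% of 32851 such windows, and in 1 of the 10 windows of these 8 members, that of Hes5. CACGCG occurred in 7.62% of windows and, counted by gene, in 3 members, Notch2, Dll1 and Jag1. A share by window and a count by gene are not the same measure, since a gene can have more than 1 window. A match is a description of letters and does not show binding.

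Over the members and factor arrays together, 21 of 100 pairs were called higher and 0 lower, beside 6.25% higher and 4.36% lower among all pairs of gene and array. The calls fell on 4 genes. Notch3, Jag1 and Hey1 were each called on 6 arrays, and 6.78% of all genes tested were called higher on 6 or more. Dll1 was called on 3 arrays. The other 6 members, which include the receptors Notch1 and Notch2 and the targets Hes1 and Hes5, were called on no array, as were 70.3% of all genes tested. The Esx1, Pdx1 and Zfp451 arrays had 4 members called higher each, and Pax6, Crebzf and Sox11 had 3. Hmga2, Gatad2b, Etv6 and Nfxl1 had 0.

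**Figure D1:**
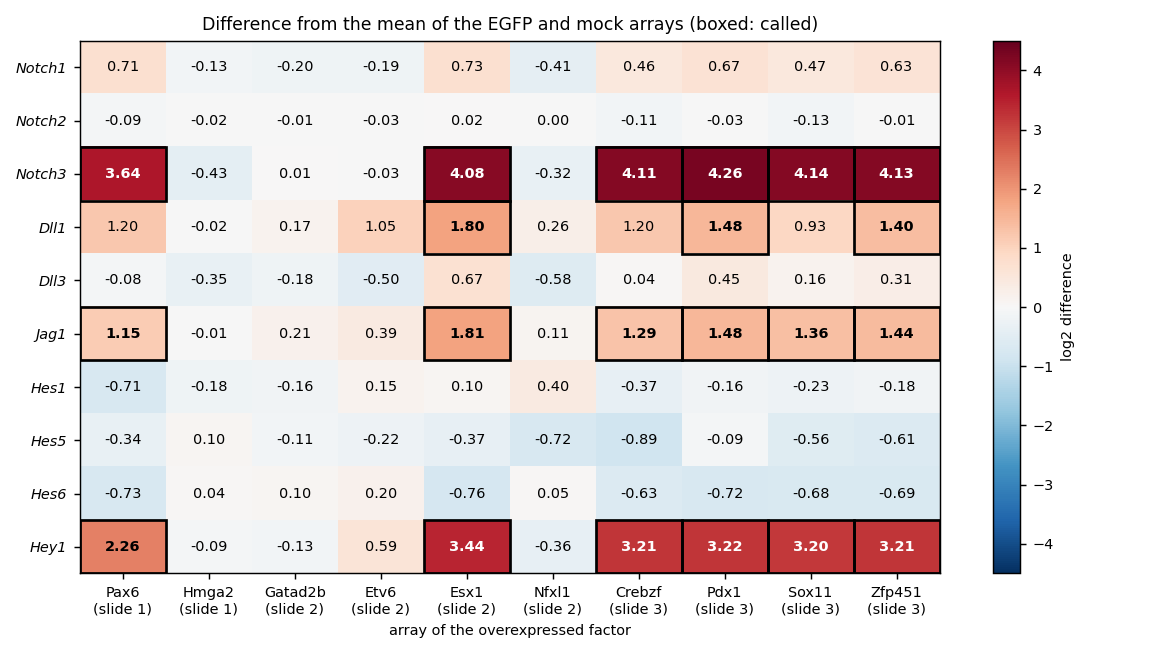
Log2 difference of each member's brightest probe (rows) from the mean of the EGFP and mock arrays, on each of the 10 factor arrays (columns, with their slide); boxed bold values were called. Notch3, Jag1 and Hey1 are boxed on the Crebzf, Esx1, Pax6, Pdx1, Sox11 and Zfp451 arrays, and Dll1 on the Esx1, Pdx1 and Zfp451 arrays.

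The receptors behaved differently from each other. Notch3, a receptor known mainly from mural cells of blood vessels but also present in neural stem cells, was read by 1 probe on the minus strand of chromosome 17 (30311822 to 30311881 in mm7, the build of the deposited probe positions). Its level was 0.85 on the Pax6 array, 1.30 on Esx1, 1.33 on Crebzf, 1.47 on Pdx1, 1.35 on Sox11 and 1.34 on Zfp451. On the other factor arrays it was -3.22 on Hmga2, -2.77 on Gatad2b, -2.82 on Etv6 and -3.10 on Nfxl1, against -2.68 on EGFP and -2.89 on mock. Nothing lay between these clusters of levels: from Pax6, the lowest of the 6 called arrays, to EGFP, the next array down, the gap was 3.53. Notch3 was called higher on those 6 arrays, by 12.5-fold on Pax6 to 19.1-fold on Pdx1. The Pax6 array lay 0.44 below Esx1, its nearest neighbour above but on another slide, which is more than the spread of 0.19. No gap among Esx1, Crebzf, Sox11, Zfp451 and Pdx1 exceeded that spread. In a culture read as a whole, more cells with the gene's RNA and more RNA per cell cannot be told apart, here and for every other member.

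Notch1, the receptor most studied in neural stem cells, was higher than both controls on the same 6 arrays, but by less than 2-fold. Its brightest probe, spotted 10 times on each array (chromosome 2, 26466563 to 26466621 in mm7), gave 0.12 on Pax6, 0.15 on Esx1, -0.12 on Crebzf, 0.08 on Pdx1, -0.11 on Sox11 and 0.05 on Zfp451. It gave -0.72 on Hmga2, -0.79 on Gatad2b, -0.77 on Etv6 and -0.996 on Nfxl1, against -0.61 on EGFP and -0.56 on mock. The factor arrays thus lay on both sides of the controls, and the gap of 0.44 between Crebzf and mock exceeded the spread of 0.19. Differences from the control mean ran from -0.41 on Nfxl1 to 0.73 on Esx1, and the SD over the repeated spots of 1 array was between 0.015 and 0.12. A second probe, which shares 1 base with the first, ranged from -0.40 to 0.83 and put the same 6 arrays above both controls and the same 4 below.

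Notch2 had nearly the same level on every array. Its brightest probe (chromosome 3, 98021215 to 98021274 in mm7) read 1.55 on Pax6, 1.66 on Esx1, 1.54 on Crebzf, 1.62 on Pdx1, 1.52 on Sox11 and 1.64 on Zfp451. It read 1.63 on Hmga2, 1.63 on Gatad2b, 1.62 on Etv6 and 1.65 on Nfxl1, against 1.65 on both EGFP and mock. The whole range was 0.14, less than the spread between the controls at this level, and no gap between neighbouring arrays exceeded that spread. A second probe differed from the control mean by -0.47 to 0.02, and the third, much dimmer, by -0.70 to -0.34, with EGFP the highest of its 12 arrays at -3.66. No Notch2 probe was called on any array, and with quantile normalization or a normexp background correction the brightest probe lay above the control mean on 6 arrays in place of 1.

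**Figure D2:**
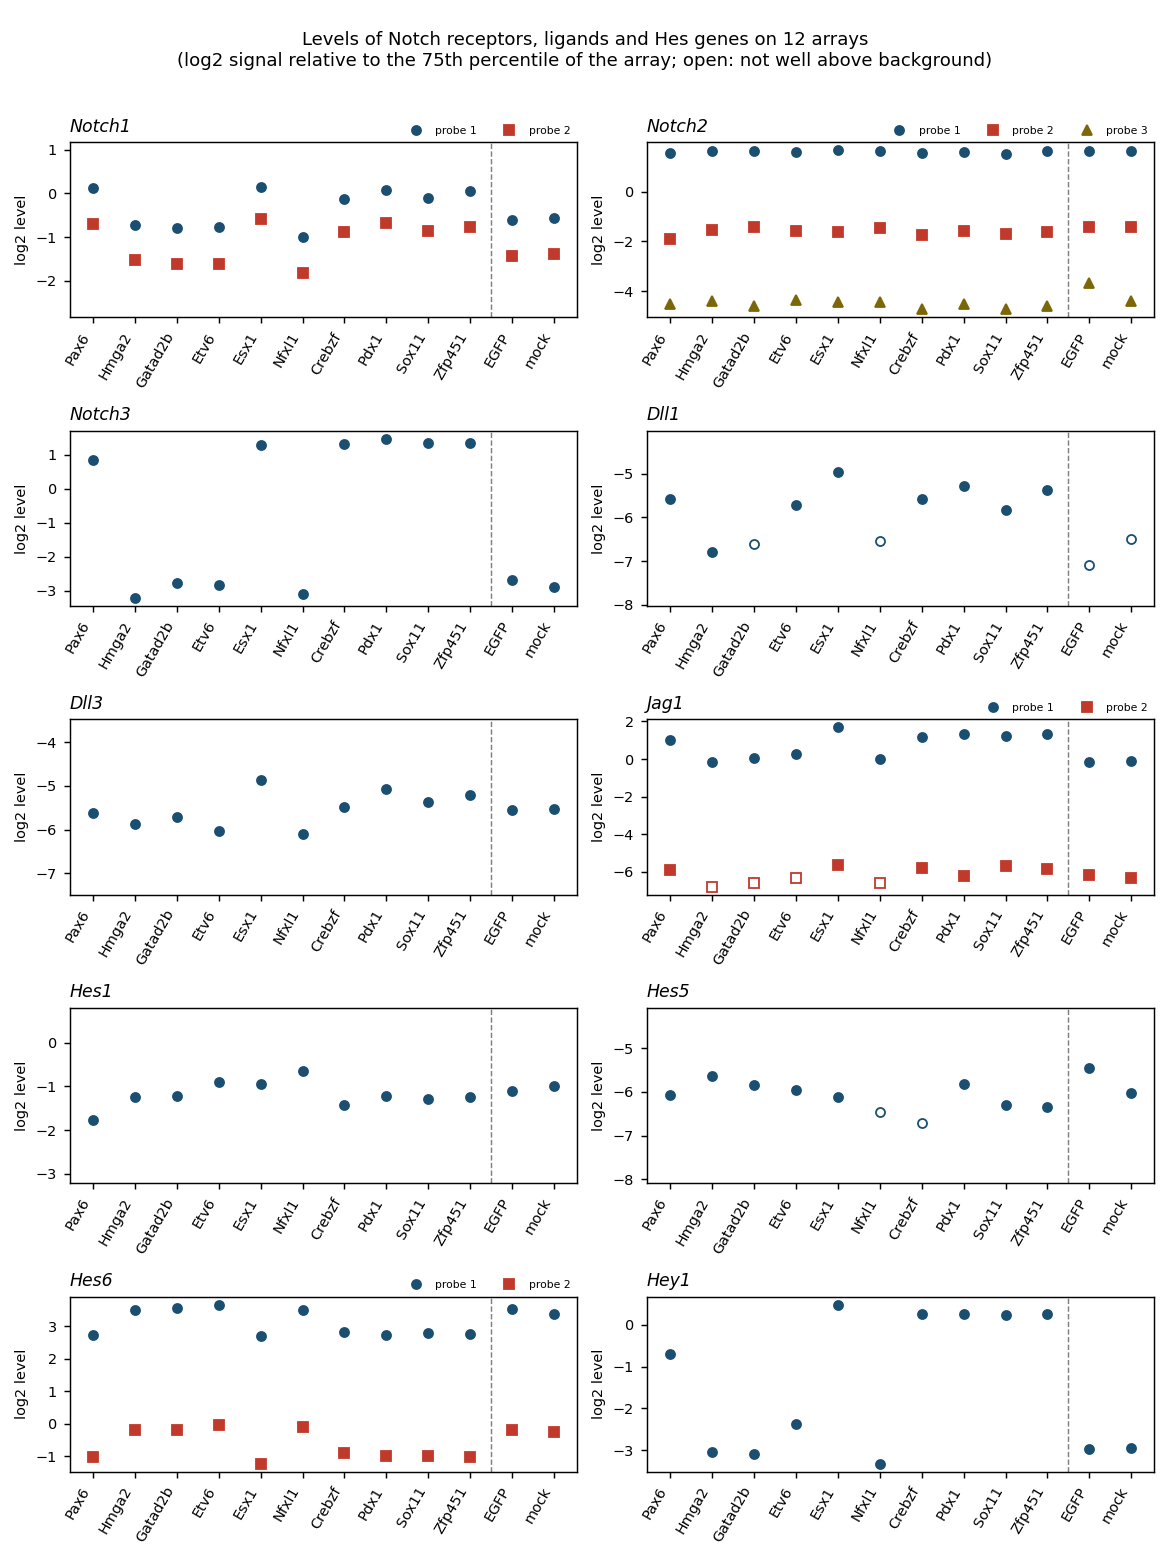
Log2 level, relative to the array's 75th percentile, of every probe of the 10 members (1 panel per gene) on the 10 factor arrays and, right of the dashed line, the EGFP and mock arrays; each point is 1 array and open points were not well above background. Notch3 falls into 2 separate clusters of levels, while Notch2, Hes1 and Dll3 do not. The widest gap of Hey1 divides the arrays as for Notch3, but Pax6 and Etv6 stand apart from the others on their sides of it.

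Among the ligands, Jag1, which activates Notch receptors on neighbouring cells, differed most clearly. Its brightest probe (chromosome 2, 136822550 to 136822609 in mm7) read 1.02 on Pax6, 1.68 on Esx1, 1.16 on Crebzf, 1.35 on Pdx1, 1.23 on Sox11 and 1.31 on Zfp451. It read -0.14 on Hmga2, 0.08 on Gatad2b, 0.26 on Etv6 and -0.02 on Nfxl1, against -0.16 on EGFP and -0.10 on mock. Jag1 was called higher on the first 6 of these arrays, by 2.22-fold on Pax6 to 3.50-fold on Esx1, and the gap between the lowest of them and Etv6 was 0.77. Esx1 stood 0.33 above Pdx1, the next array, which is more than the spread of 0.19. The second Jag1 probe, on the same chromosome at 136824059 to 136824118, was dim, was well above background on 8 arrays and was not called. It read -5.88 on Pax6, -5.61 on Esx1, -5.80 on Crebzf, -6.21 on Pdx1, -5.71 on Sox11 and -5.85 on Zfp451, against -6.18 on EGFP and -6.30 on mock. When both probes were averaged, the Jag1 call held on Esx1 and was lost on the other 5 arrays, where the difference was 0.75 to 0.94.

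**Figure D3:**
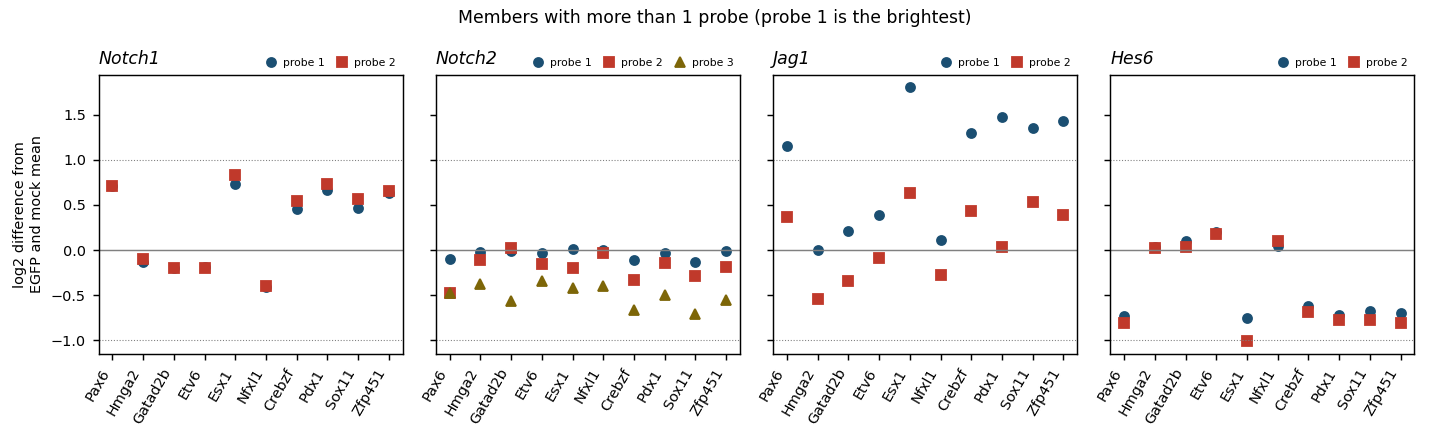
Log2 difference from the mean of the EGFP and mock arrays for each probe of the 4 members with more than 1 probe, on the 10 factor arrays; dotted lines mark 2-fold. The 2 probes of Notch1 and of Hes6 nearly coincide, and the second Jag1 probe stays below the first on every array.

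Dll1, a ligand made by differentiating neural cells, was near background throughout, and its 10 spots (chromosome 17, 13604553 to 13604612 in mm7) scattered by an SD of 0.14 to 0.60 within an array. Its level was -5.57 on Pax6, -4.97 on Esx1, -5.57 on Crebzf, -5.29 on Pdx1, -5.84 on Sox11 and -5.37 on Zfp451. It was -6.79 on Hmga2, -6.61 on Gatad2b, -5.72 on Etv6 and -6.54 on Nfxl1, against -7.08 on EGFP and -6.49 on mock. The probe was well above background on 8 arrays, and not on Gatad2b, Nfxl1, EGFP or mock, so folds against the controls are lower limits. Dll1 was called higher on Esx1, at least 3.48-fold, on Pdx1, by 1.48 or more on the log2 scale, and on Zfp451, at least 2.63-fold. On 7 factor arrays, Etv6 among them, Dll1 lay above both controls, and against EGFP alone, the dimmer control, it was called on all 7. No gap between neighbouring arrays exceeded the spread of 0.67. With normexp correction the 3 differences were 0.25, 0.24 and 0.12 and no call was left.

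Dll3, a divergent ligand that does not activate receptors on neighbouring cells, was dim but well above background on all 12 arrays (chromosome 7, 25227642 to 25227701 in mm7). It read -5.61 on Pax6, -4.86 on Esx1, -5.49 on Crebzf, -5.08 on Pdx1, -5.37 on Sox11 and -5.22 on Zfp451. It read -5.88 on Hmga2, -5.71 on Gatad2b, -6.03 on Etv6 and -6.11 on Nfxl1, against -5.54 on EGFP and -5.52 on mock. Factor arrays lay on both sides of the controls, between -0.58 and 0.67 from their mean, and none was called.

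Among the Hes and Hey genes, as among the receptors, 1 member was far higher on the 6 arrays and the others were not called. The members not called differed in direction, since Notch1 lay above both controls on those arrays and Hes6 below both. Hey1, a Notch target of the Hey family (chromosome 3, 8669867 to 8669926 in mm7), read -0.70 on Pax6, 0.48 on Esx1, 0.24 on Crebzf, 0.26 on Pdx1, 0.23 on Sox11 and 0.25 on Zfp451. It read -3.05 on Hmga2, -3.09 on Gatad2b, -2.37 on Etv6 and -3.32 on Nfxl1, against -2.97 on EGFP and -2.96 on mock. Hey1 was called higher on the first 6, by 4.79-fold on Pax6 to 10.9-fold on Esx1. The 4 arrays of the third slide lay between 0.23 and 0.26, Esx1 was 0.22 above the highest of them and Pax6 was 0.94 below the lowest, both more than the spread of 0.19. Etv6 was 0.59 above mock, more than the spread of 0.48 at that level, but below 2-fold and not called.

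Hes1, the target that oscillates in neural progenitors and maintains them, was called on no array. Its probe lies on chromosome 16, between 29738743 and 29739038 in mm7, a span of 296 bases for a probe of 60. It read -1.76 on Pax6, -0.95 on Esx1, -1.43 on Crebzf, -1.21 on Pdx1, -1.28 on Sox11 and -1.23 on Zfp451. It read -1.24 on Hmga2, -1.22 on Gatad2b, -0.90 on Etv6 and -0.65 on Nfxl1, against -1.11 on EGFP and -0.996 on mock. The extremes were thus Pax6, 0.71 below the control mean and 0.34 below the next array, and Nfxl1, 0.40 above that mean and 0.25 above the next array, with both gaps over the spread of 0.19.

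Hes5, the other classical Notch target of neural progenitors, was close to background (chromosome 4, 153951780 to 153951839 in mm7). It read -6.08 on Pax6, -6.11 on Esx1, -6.72 on Crebzf, -5.83 on Pdx1, -6.30 on Sox11 and -6.35 on Zfp451. It read -5.64 on Hmga2, -5.85 on Gatad2b, -5.96 on Etv6 and -6.46 on Nfxl1, against -5.45 on EGFP and -6.03 on mock. On Crebzf and Nfxl1 it was not well above background, and no array was called or lay above both controls. At this level a difference of 0.67 is within the 95th percentile between the controls, so differences up to that size were not detectable for Hes5, Dll1 or Dll3.

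Hes6, a Hes family member that counteracts Hes1 and favours neuronal differentiation, was lower than both controls on the 6 arrays, by less than 2-fold. Its brightest probe (chromosome 1, 91319132 to 91319191 in mm7) read 2.73 on Pax6, 2.70 on Esx1, 2.84 on Crebzf, 2.74 on Pdx1, 2.78 on Sox11 and 2.77 on Zfp451. It read 3.50 on Hmga2, 3.56 on Gatad2b, 3.67 on Etv6 and 3.51 on Nfxl1, against 3.53 on EGFP and 3.39 on mock. The gap of 0.55 between mock and Crebzf was the 1 gap beyond the spread of 0.19. A second probe, at 91320176 to 91320235, read -1.02 on Pax6, -1.22 on Esx1, -0.90 on Crebzf, -0.99 on Pdx1, -0.99 on Sox11 and -1.03 on Zfp451, against -0.18 on EGFP and -0.25 on mock. The brightest probe, which decides the call, had its lowest difference from the control mean, -0.76, on Esx1, so Hes6 was not called. The lowest of the second probe was -1.01, also on Esx1, and there too that array was not 2-fold below both controls.

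By role, the median difference of the 3 receptors was 0.46 to 0.73 on the Crebzf, Esx1, Pax6, Pdx1, Sox11 and Zfp451 arrays. There that of the 3 ligands was 0.93 to 1.80, and that of the 4 Hes and Hey genes -0.53 to -0.12. Hes6, which counteracts Hes1 and was lower on those arrays, is 1 of these 4, so their median is not a measure of Notch target genes alone. With so few genes, that receptor median was the value of Notch1, and the ligand median that of Jag1 or of Dll1, which was near background. The median of the Hes and Hey genes leaves out of sight Hey1, which was 2.26 to 3.44 higher. These medians thus describe single genes and not a role as a whole. On Hmga2, Gatad2b, Etv6 and Nfxl1 these medians were -0.32 to -0.01 for receptors, -0.02 to 0.39 for ligands and -0.16 to 0.18 for Hes and Hey genes. Over all 10 members the median ran from -0.16 on Nfxl1 to 0.70 on Esx1, beside -0.15 on Pdx1 to 0.02 on Gatad2b for all genes tested.

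The slides leave the Pax6 and Esx1 arrays as within-slide comparisons. Against the mean of Hmga2, EGFP and mock on its own slide, Pax6 was 3.78 higher for Notch3, 2.29 for Hey1, 1.15 for Jag1 and 0.75 for Notch1, and it differed by -0.75 for Hes6 and -0.65 for Hes1. Against the mean of Gatad2b, Etv6 and Nfxl1 on its slide, Esx1 was 4.20 higher for Notch3, 3.41 for Hey1, 1.57 for Jag1 and 0.998 for Notch1, and it differed by -0.88 for Hes6 and -0.03 for Hes1. Against the mean of EGFP and mock the same differences of Notch3, Hey1 and Jag1 were 3.64, 2.26 and 1.15 on Pax6 and 4.08, 3.44 and 1.81 on Esx1, so all of these passed 2-fold within their slides too. The 4 arrays of the third slide all lay between 1.33 and 1.47 for Notch3 and between 0.23 and 0.26 for Hey1, so no array of that slide gives a comparison of this kind.

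Other genes of the pathway were taken from a list of 52, of which 48 were well above background on at least 1 array. Of their 480 pairs of gene and array, 42 were called higher and 18 lower, beside the shares of 6.25% and 4.36% among all genes. By gene, 9 were called higher and 4 lower on at least 1 array and 35 on none. The calls fell on Crebzf, Esx1, Pax6, Pdx1, Sox11 and Zfp451, with 1 exception, Dner on Etv6. Called higher on 6 or more arrays were 5 genes of the list, beside 6.78% of all genes tested, and called lower on 6 or more were 2, beside 3.46%.

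Nrarp, a Notch target whose product damps Notch signalling, moved opposite to Hey1. It read -3.71 on Pax6, -3.74 on Esx1, -3.67 on Crebzf, -3.53 on Pdx1, -3.89 on Sox11 and -3.86 on Zfp451. It read -0.96 on Hmga2, -1.04 on Gatad2b, -1.30 on Etv6 and -1.002 on Nfxl1, against -1.16 on EGFP and -0.89 on mock. Nrarp was called lower on the first 6 arrays, by 5.71-fold on Pdx1 to 7.33-fold on Sox11. Of all genes tested, 3.46% were called lower on 6 or more arrays. The levels of Nrarp on those 6 did not overlap those of the other arrays, which a call below both controls in part entails. Hes2, another Hes gene, was called lower on 5 arrays, Pdx1 not among them, by 2.39-fold to 3.48-fold, but its second probe was called on none.

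Of 4 other receptors and ligands, Jag2, a ligand of the Jagged type, was lower on the 6 arrays, by 2.04-fold on Crebzf to 3.76-fold on Esx1. Jag2 read -4.12 on Pax6, -4.98 on Esx1, -4.10 on Crebzf, -4.18 on Pdx1, -4.23 on Sox11 and -4.14 on Zfp451, against -3.06 on EGFP and -3.08 on mock. Its direction was thus opposite to that of Jag1. Dner, a neuronal transmembrane protein reported to bind Notch, was called higher on Etv6, Esx1, Crebzf, Pdx1, Sox11 and Zfp451, at least 2.24-fold on Etv6 and at least 5.04-fold on Esx1, since mock was not well above background. Notch4 ranged from -0.38 to 0.48 and was not called, and Dll4 was well above background on 2 arrays and not called.

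Of 10 genes of ligand and receptor trafficking, 4 were called higher on at least 1 array, 0 lower and 6 on none, beside 70.3% of all genes tested called on none. Neurl1a, a ubiquitin ligase that acts on ligands, was 3.49-fold higher on Pax6 to 4.84-fold on Pdx1 over 6 arrays. Dtx3, of the Deltex family of Notch regulators, was 2.58-fold to 3.07-fold higher on 6, and Dtx1 at least 2.26-fold to 3.49-fold on 5, all but Pax6. Mib2, a further ligase for ligands, was 2.10-fold to 2.14-fold higher on Pdx1, Sox11 and Zfp451. Mib1, the main ligase for ligands, was not called by its brightest probe (-0.62 to -0.05), while its second probe was called lower on 6 arrays.

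In the cleavage and nuclear steps most genes were not called, beside 70.3% of all genes tested called on no array. Of the 13 nuclear genes, Tle2, Maml2, Tle4, Fbxw7 and Nrarp, the last described above, were called on at least 1 array. Of 9 genes of receptor cleavage only Aph1b, a subunit of gamma-secretase, was called, 2.53-fold to 3.53-fold higher on 6 arrays, and its value is uncertain because Aph1c is a near-identical copy. Rbpj ranged from -0.51 to 0.08 and was not called. The Groucho-type corepressor Tle2 was 4.51-fold to 5.85-fold higher on 6 arrays, with 3.10 on Pax6 and 2.80 on Esx1 against 0.48 on EGFP and 0.63 on mock. The brightest probe of its relative Tle1 was not called, though 2 other probes of Tle1 were called higher on 6 arrays. The coactivator Maml2 was 2.06-fold to 2.52-fold higher on Esx1, Pdx1 and Zfp451, and its second probe was called on none. On Esx1 alone, Tle4 was 2.14-fold higher and Fbxw7, which marks the receptor's inner part for destruction, 2.45-fold lower, and whether Esx1 differed from the other arrays there was not tested. None of 5 glycosyltransferases that modify receptors, and none of the 4 measured of 6 proneural genes, was called by its brightest probe, beside the same 70.3%. The second probe of Poglut1, one of the glycosyltransferases, was called lower on 4 arrays, with a lowest difference of -1.39.

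**Figure D4:**
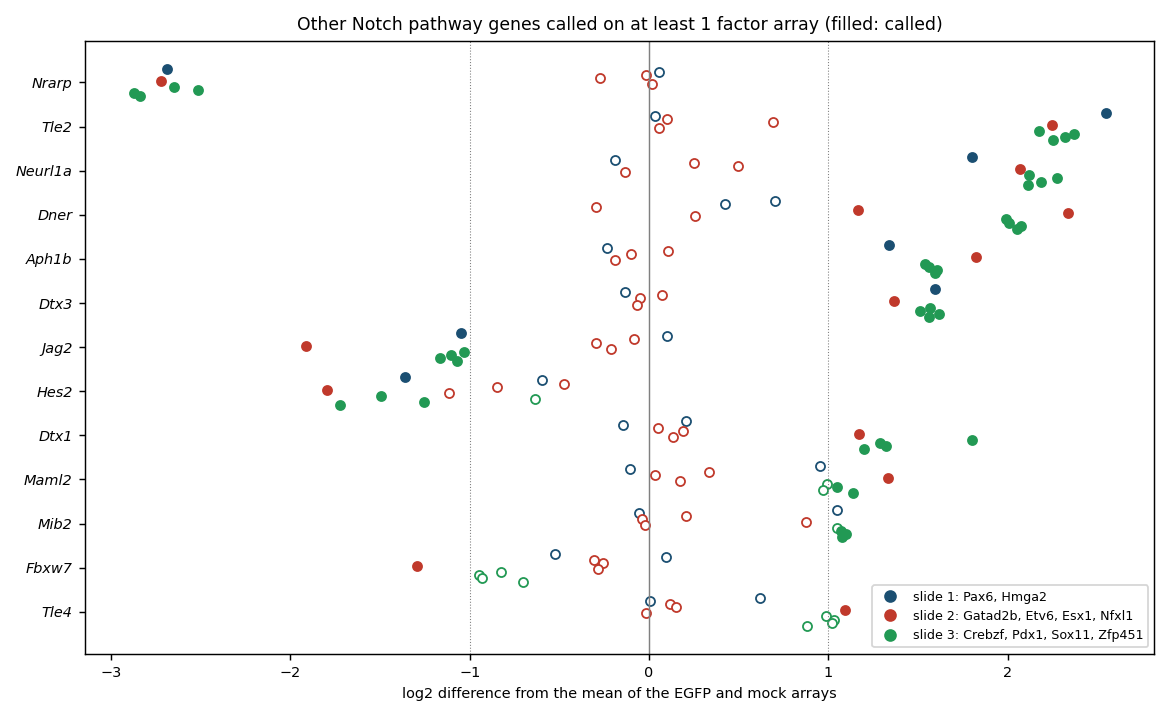
Log2 difference from the mean of the EGFP and mock arrays for the 13 other pathway genes called on at least 1 factor array (rows); each point is 1 factor array, coloured by slide, and filled points were called. Nrarp and Jag2 lie left of 0 and Tle2, Neurl1a, Aph1b and Dtx3 right of 0 on the same 6 arrays.

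Some marker genes of the cells were called on factor arrays and others of the same lists were not. Of 8 neural progenitor markers, 7 or 8 were well above background on every array, and Sox2, Prom1 and Vim were not called. Pax6 was called higher on 6 factor arrays and Fabp7 on 1, while Nes was called lower on 5 and Sox1 and Msi1 on 1 each. Pax6 is also an overexpressed factor, and whether its probe read the inserted copy on the Pax6 array was not tested. The list's summed signal was 80.9 to 96.1 times the 75th percentile on Crebzf, Esx1, Pax6, Pdx1, Sox11 and Zfp451 and 99.3 to 124.5 times on Hmga2, Gatad2b, Etv6 and Nfxl1, against 100.3 on EGFP and 97.2 on mock. Most of this sum came from Vim, whose log2 level was 6.19 to 6.79 on factor arrays. Of 8 fibroblast and mural markers, the summed signal was 239.1 to 256.2 times the 75th percentile on Crebzf, Esx1, Pax6, Pdx1, Sox11 and Zfp451 and 112.7 to 121.8 times on Hmga2, Gatad2b, Etv6 and Nfxl1, against 120.5 on EGFP and 112.7 on mock. Of these 8 genes Col1a1 was called higher on 6 arrays, Dcn on 7, Rgs5 on 4, Col3a1 on 3 and Pdgfrb, a mural cell receptor, on 2. Col1a2, Lum and Acta2 were called on none. Col1a2 made the largest part of the list's summed signal. Its log2 level was 5.81 to 7.07 on factor arrays, against 6.08 on EGFP and 5.99 on mock. Acta2 was at a log2 level of 3.95 to 4.28 on factor arrays, against 3.96 on EGFP and 3.87 on mock. The part of this list in the Notch3, Jag1 and Hey1 results was not tested. Of 8 endothelial markers, Pecam1, Cdh5 and Tie1 were well above background on 0 of 12 arrays and Egfl7, Tek and Esam on 12. None of the list was called higher, and Cldn5 was called lower on 2 arrays. The list's sum was 6.32 to 6.75 on the Crebzf, Esx1, Pax6, Pdx1, Sox11 and Zfp451 arrays and 4.42 to 5.11 on the other factor arrays, against 4.37 on EGFP and 4.36 on mock. Most of it came from Egfl7, whose log2 level was 2.12 to 2.74 on factor arrays, against 2.10 on EGFP and on mock. Astrocyte markers summed to 6.11 to 8.75 on the Crebzf, Esx1, Pax6, Pdx1, Sox11 and Zfp451 arrays and 2.96 to 4.04 on the other factor arrays, against 3.65 on EGFP and 3.36 on mock, and most of the sum came from Slc1a3, at a log2 level of 1.15 to 2.75 on factor arrays. S100b was called higher on 6 arrays, Aldh1l1 on 4 and Slc1a3 on 1. Gjb6 was well above background on 0 arrays, and Gfap and Aqp4 only on the EGFP control. The part of the endothelial and astrocyte markers in the result was not tested either.

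Across the 10 factor arrays, the genes whose differences from the control mean lay nearest to those of a called member were found among 12576 named genes well above background on all arrays, by the mean absolute difference. Nearest to Notch3 were Ccdc80, 0.11 apart on average, and Casp4, 0.15. Nearest to Hey1 were Htra3, 0.12, and Zkscan2, 0.13. Nearest to Jag1 were App, 0.08, and Galnt12, 0.09. Nearest to Dll1 were Wnt5b, 0.12, and Jag1 itself, 0.15. These distances share the same control arrays and are a description over 10 arrays.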

How the data were processed

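RNA was labelled from 0.25 µg and read on 12 one-colour Agilent arrays, 1 for each group. Per the file headers, Agilent Feature Extraction 10.7.3.1 gave each spot a linear intensity with background already subtracted, and the deposited table of values equals that column. Probe positions are those of mm7 in the files, and placement in exons is not analysed here.

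Outlier spots were left out and repeated spots averaged (43379 spots, 41174 probes). Intensities were divided by each array's 75th percentile and put on a log2 scale. For differences and calls, values below the array's lowest well-above-background signal were raised to it, while printed levels are as measured. A gene was read by its brightest probe and tested if well above background on 1 array or more, and names came from accession (23082 probes), symbol (6582), synonym (3073) or the file (8437). No test was possible with 1 array in each group, and counts use the 2-fold rule. A fold is the difference from the mean of EGFP and mock, written "at least" where the dim side was not well above background. The 75th percentile was 823 to 1026 units, 62.9% to 69.4% of spots were well above background and 0 were saturated. Precision is limited by the number of arrays.

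The members, the pathway list, the marker lists and the rules were chosen with earlier results of these data known. Named were all members, the pathway genes called on the most arrays (at most 14) and, for each called member, the 2 genes with the nearest differences. Of the pathway genes not called, a few are named to show a group's range, chosen after their values were seen. Marker lists of neurons, oligodendrocyte lineage, microglia and blood, and embryonic stem cells were also counted over the 10 factor arrays and are given in the closing section. The call rule was checked on simulated data. Alternatives were quantile normalization, normexp background correction (limma 3.58.1 in R 4.3.3, offset 50), no floor, the mean of probes, a restriction to genes well above background throughout, a threshold of 3-fold, EGFP alone, mock alone, a reference taken as the median of the other 9 factor arrays, centring within slides and the series value table. Leaving out arrays by slide was added after seeing the data. Python 3.11.15, numpy 2.4.6, pandas 2.3.3 and matplotlib 3.10.9 were used.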

Additional observations from a re-analysis of the deposited data

How the results depend on the processing

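No paired analysis was possible because each group has 1 array. The 21 member calls were all higher, and none turned lower, under quantile normalization (22 calls), no floor (21), mock alone (21), the series value table (21), normexp correction (18), a restriction to genes well above background throughout (18) and the mean of probes (16). In that order, these settings called 6.38%, 6.98%, 7.21%, 6.25%, 3.47%, 5.94% and 5.36% of all pairs of gene and array higher. They called 2.31% to 6.16% of all pairs lower. A threshold of 3-fold left 13 member calls, those of Notch3 and Hey1 on 6 arrays each and Jag1 on Esx1, with 19 higher and 8 lower in the pathway list, beside 3.32% higher and 0.907% lower among all pairs of gene and array (6.25% and 4.36% at 2-fold). EGFP alone called 2 member pairs lower, both Hes5, and 25 higher, beside 5.83% lower and 7.10% higher of all pairs. Normexp correction left 30 pathway calls higher and 10 lower, beside 3.47% and 2.31% of all pairs. Centring within slides left 6 member calls, those of Notch3, Jag1 and Hey1 on Pax6 and Esx1, and 10 pathway calls higher and 6 lower, beside 2.42% and 1.35% of all pairs. It subtracts what the third slide's arrays share, so Notch3 there stood at 0.76 to 0.90, Hey1 at 0.53 to 0.56 and Jag1 at 0.19 to 0.37. With a reference taken as the median of the other 9 factor arrays, most of which were themselves high, 1 member pair was called higher and 13 lower, with 10 pathway calls higher and 27 lower, beside 3.50% and 4.62% of all pairs. Notch3 on Pax6 then turned to -0.44, Jag1 to -0.14 and Hey1 to -0.94. Chosen after seeing the data, only the Pax6 and Hmga2 arrays gave 3 member calls higher, and 4 pathway calls higher and 3 lower. Of all genes tested, 10.7% were called higher and 6.4% lower on Pax6, and 0.43% and 0.569% on Hmga2. Without the Crebzf, Pdx1, Sox11 and Zfp451 arrays there were 7 member calls higher, and 13 higher and 7 lower in the pathway list. The arrays this adds had 10.3% of all genes higher and 7.43% lower on Esx1, and 0.631% and 1.0% on Gatad2b. Etv6 had 1.05% and 0.837%, and Nfxl1 0.296% and 1.22%. No share over the joined arrays was computed. Quantile normalization moved the median of all genes by 0.12 on Pdx1 and 0.11 on Sox11, centring by 0.12 on Pdx1, and the factor-array reference by 0.12 on Etv6 and 0.11 on Esx1 and Pdx1. Signal near background limits Dll1, Dll3 and Hes5.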

Other observations

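Further marker lists were counted over the same 10 factor arrays. Of 6 neuron markers, 10 of 60 pairs were called higher and 0 lower, with Snap25, a synaptic protein, higher on 6 arrays. Dcx was well above background only on the EGFP control, and on no factor array. Of the 5 oligodendrocyte-lineage markers measured, 8 of 50 pairs were higher and 2 lower, with Pdgfra, a growth factor receptor of their precursors, higher on 7 arrays and Olig1 well above background on 0. Of the 5 microglia and blood markers measured, 8 of 50 pairs were higher and 0 lower, and Aif1 was higher on 6 arrays while Itgam was well above background on 0. Of 6 embryonic stem cell markers, 0 pairs were higher and 6 lower, all of them Esrrb. The astrocyte list had 11 of 50 pairs higher, the endothelial list 2 lower, the fibroblast and mural list 22 of 80 higher, and the neural progenitor list 7 higher and 7 lower of 80, beside the shares of 6.25% higher and 4.36% lower among all genes tested.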
